A study of Mus musculus with 12 samples.

Results

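The MHC class I presentation genes examined here were the 10 genes H2-K1, H2-D1, B2m, Tap1, Tap2, Tapbp, Psmb8, Psmb9, Psmb10 and Nlrc5, chosen by name from the 22630 genes of each expression file, and all 10 were found and tested. RNA was sequenced from 12 whole subcutaneous tumors, 4 in each of 3 groups, grown from the mouse pancreatic cancer line KCip53-1 in NSG mice injected at 8 to 10 weeks of age with 500000 cells per tumor. The no-dox tumors grew in mice that were never given doxycycline (dox). The plus-dox tumors had 36 days of dox (0.2 g/l in water with 5% sucrose), and the off-dox tumors had 33 days of dox followed by 3 days without it.

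All 3 groups came from this single line, which was sorted by its dsRed reporter from a primary pancreatic tumor of a mouse with the alleles Ptf1a-Cre, TREp53R270H and R26rtTa, among others. Ptf1a drives Cre in the pancreatic epithelium, and dox switches on the p53R270H transgene. The paper states that its cell lines were grown in culture with dox. Exposure to dox therefore refers below to the time in the mouse only. NSG hosts lack mature T, B and NK cells but keep macrophages, neutrophils, fibroblasts and vessels. Each mouse carried 2 tumors. Which tumors shared a mouse is not given in the sources used here, and p-values, which treat tumors as independent, are too small where a mouse gave 2 tumors to a group. Since RNA came from unsorted tissue, fewer cells of a type and less RNA per cell cannot be told apart in any value below.

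Class I molecules display peptides from inside the cell to CD8 T cells. The proteasome cuts proteins into peptides, and when its catalytic subunits are exchanged for Psmb8, Psmb9 and Psmb10 it is called the immunoproteasome. Tap1 and Tap2 form the transporter that carries peptides into the endoplasmic reticulum, and tapasin, the product of Tapbp, holds the empty class I molecule at the transporter. The loaded molecule consists of a polymorphic heavy chain, such as the products of H2-K1 and H2-D1, and the invariant light chain beta-2 microglobulin from B2m. Nlrc5 is the transactivator that acts at class I promoters together with the RFX, CREB and NF-Y factors, and interferon gamma raises most of these genes.

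In the mm9 build used by the files, 7 of the 10 genes lay on chromosome 17 between 34056423 and 35404442, within the mouse MHC. From the lower coordinate they were Tapbp (34056423 to 34066235), H2-K1 (34132957 to 34137278), Psmb9 (34319044 to 34324275), Tap1 (34324501 to 34334170), Psmb8 (34335140 to 34338399), Tap2 (34341424 to 34353266) and H2-D1 (35400039 to 35404442). B2m was on chromosome 2 (121973423 to 121978818), and Psmb10 (108459628 to 108462292) and Nlrc5 (96996663 to 97051172) were on chromosome 8. Values for all 10 were read on exons, pooled over RefSeq isoforms and without regard to strand.

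Upstream sequence was taken from RefSeq promoter windows of the GRCm38.p6 build, which held 8 of the 10 genes, with Tap2 and Nlrc5 not analysed here. The windows were searched on both strands for GGGGATTCC (a kappa B motif), the core of the interferon-stimulated response element (a pair of GAAA 2 bases apart), TGACG (a core of the cyclic AMP response element, bound by CREB factors) and CCAAT (the Y box, bound by NF-Y). The 3 stretches below are shown because they hold the same pair of motifs at the same spacing. They are upstream of the heavy chain genes and of the light chain gene, on the coding strand and 5′ to 3′, with matches in capitals. ATTGG is CCAAT read on the other strand. The H2-K1 stretch is chr17:34000348-34000467 (minus strand), that of H2-D1 is chr17:35262914-35263033 (plus strand), and that of B2m is chr2:122147530-122147649 (plus strand).
H2-K1: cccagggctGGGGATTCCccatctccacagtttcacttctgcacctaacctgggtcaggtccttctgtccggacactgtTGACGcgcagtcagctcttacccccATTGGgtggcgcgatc
H2-D1: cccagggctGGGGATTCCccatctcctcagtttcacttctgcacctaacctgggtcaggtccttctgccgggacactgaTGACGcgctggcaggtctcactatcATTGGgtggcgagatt
B2m: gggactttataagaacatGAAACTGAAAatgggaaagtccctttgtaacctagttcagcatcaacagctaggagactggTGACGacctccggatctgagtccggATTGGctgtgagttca

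TGACG and ATTGG were separated by 20 bases in all 3 stretches. That pair at that spacing was found in 30 of 32851 promoters of the table (0.0913%), including 3 of the 8 class I genes with a window and, of the other gene lists used here, the nonclassical heavy chain H2-M3. The spacing was chosen after the sequences were seen. GGGGATTCC was in 0.213% of all promoters, the response element core in 2.98%, TGACG in 17.8% and CCAAT in 33.8%. Aligned without gaps, the H2-K1 and H2-D1 stretches were identical at 107 of 120 bases (89.2%), whereas H2-K1 and B2m shared 47 of 120.

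Tap1 and Psmb9 are transcribed away from each other, and all 225 bases between their start sites, chr17:34187331-34187555 (GRCm38.p6, plus strand, which is the coding strand of Tap1), are shown because both genes have them as upstream sequence. Capitals mark the matches to CCAAT and TGACG.
Tap1 and Psmb9: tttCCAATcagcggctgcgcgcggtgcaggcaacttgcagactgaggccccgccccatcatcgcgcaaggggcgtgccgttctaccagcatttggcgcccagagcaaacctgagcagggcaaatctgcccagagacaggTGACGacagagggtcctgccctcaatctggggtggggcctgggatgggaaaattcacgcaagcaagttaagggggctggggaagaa

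Tumors had 19845923 to 33137609 reads on genes, of which the 10 genes took between 324 (Nlrc5) and 35987 (B2m) per gene. The share of mapped reads that fell on genes was 88.4% to 89.4% for the no-dox tumors, 82.2% to 87.1% under dox and 81.1% to 85.8% after its removal. No batch is named in the labels, and whatever set this share cannot be told apart from the dox groups. On the leading principal component of 14548 expressed genes (49.8% of the variance), plus-dox tumor 2 (score 102) and off-dox tumor 4 (66.9) stood apart from the other 10 tumors (-43.5 to 6.23), so each comparison was also run without them, a choice made after seeing the data. Trp53, to which transgene and endogenous reads both map, ranged from 40.1 to 57.4 RPKM with overlapping groups and does not check the labels. Epithelial markers were present in every tumor (8 genes summed, 1048 to 3033 RPKM), as were those of macrophages (8 genes, 984 to 1708 RPKM) and fibroblasts (7 genes, 1005 to 2912 RPKM).

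Levels are given in RPKM, reads per kilobase of exon scaled to the mapped reads, which allows genes of different length to be compared. B2m was the most abundant of the 10 genes (mean of 12 tumors 996 RPKM), followed by H2-D1 (406 RPKM) and H2-K1 (280.0 RPKM). Tapbp averaged 58.9 RPKM, Psmb8 50.8, Psmb10 41.5, Psmb9 34.8, Tap1 16.0 and Tap2 13.1 RPKM, and Nlrc5 was lowest at 3.22 RPKM. Only 3 steps in this order were larger than the whole spread over tumors, B2m above H2-D1, H2-K1 above Tapbp and Tap2 above Nlrc5. Between the other neighbours the ranges overlapped, although within a tumor H2-D1 exceeded H2-K1 in 12 of 12 tumors and Tapbp exceeded Psmb8 in 9 of 12.

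**Figure D1:**
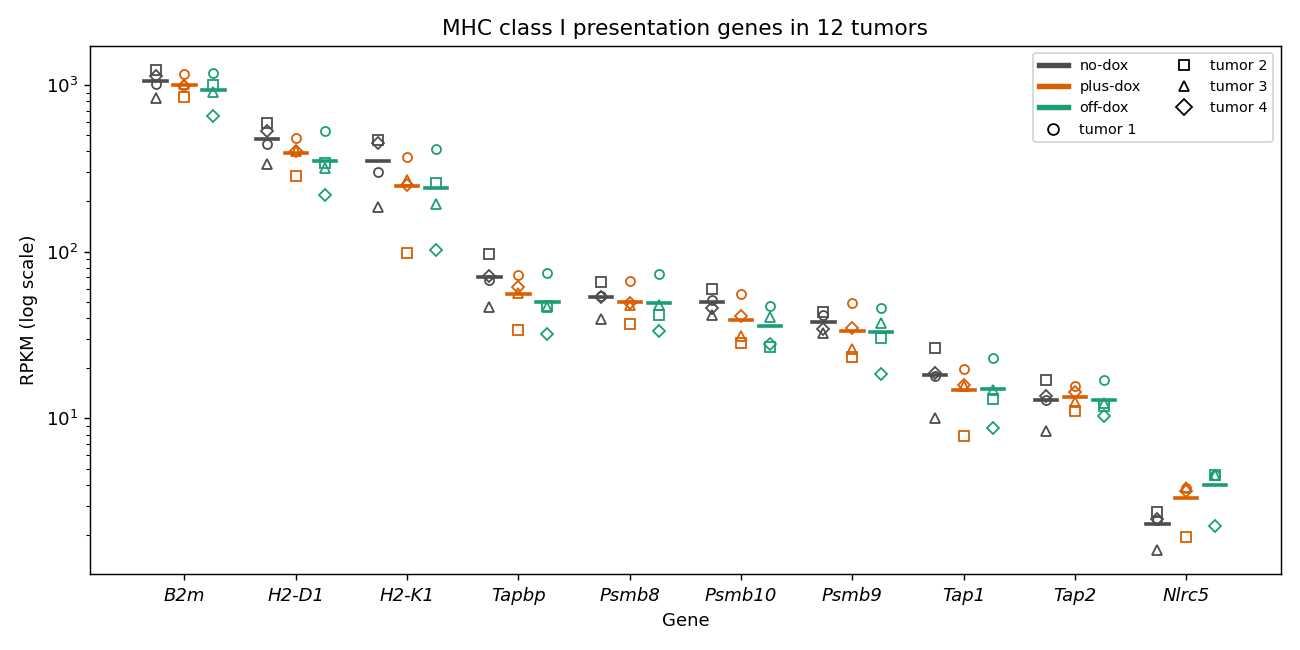
RPKM (log axis) of the 10 genes in each of 12 tumors, coloured by group, with a symbol for the tumor number and a bar for the mean of 4 tumors. The 3 groups overlap for every gene, and Nlrc5 is the lowest gene and the one with its highest group mean in off-dox tumors (3.99 RPKM) and its lowest in no-dox tumors (2.33 RPKM).

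None of the 10 genes passed the edgeR test in any pair of groups. A call required an adjusted p under 0.1 in edgeR's quasi-likelihood test, a change over 1.5-fold and a mean RPKM over 0.25. Against no-dox tumors, 0% of the 17561 genes tested were called in plus-dox tumors, 1.34% (235 genes) were called in off-dox tumors, and 0% were called between off-dox and plus-dox tumors. At an unadjusted p under 0.05, edgeR held 0 of the 10 in plus-dox against no-dox (13.7% of all genes), 1 of 10 in off-dox against no-dox (Nlrc5; 20.4% of all genes) and 0 of 10 in off-dox against plus-dox (3.06%). DESeq2, the tool named in the paper's methods, was run here as an alternative. By DESeq2, Nlrc5 was called in off-dox against no-dox, where 615 of all 17561 genes were called. In plus-dox against no-dox, DESeq2 called 128 of all genes, where edgeR called 0. No other of the 10 was called by DESeq2 in any pair. Median log2 fold changes of the 10 were -0.23 in plus-dox against no-dox and -0.22 in off-dox against no-dox, beside 0.01 for all genes tested in each. Both comparisons use the same 4 no-dox tumors. Without plus-dox tumor 2 and off-dox tumor 4 these medians were -0.07 and -0.05.

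**Figure D2:**
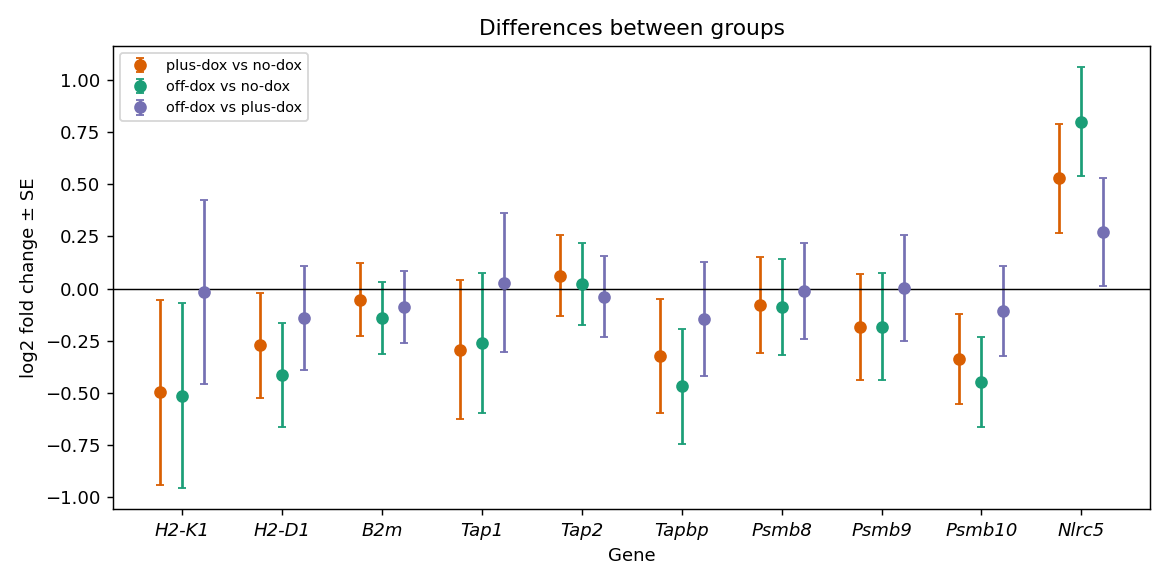
Log2 fold change (edgeR, error bars ± SE, 4 tumors per group) of each gene in the 3 pairs of groups, with the first-named group higher above 0. Nlrc5 is the only gene over 0.5 (0.80 in off-dox against no-dox, SE 0.26), and H2-K1 has the widest error (SE 0.44).

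The heavy chain gene H2-K1 varied most. Its level was 300.4, 466, 185 and 452 RPKM in no-dox tumors 1 to 4. The plus-dox tumors 1 to 4 had 367, 98.5, 271 and 252 RPKM, and the off-dox tumors 1 to 4 had 412, 259, 194 and 103 RPKM. Its highest and lowest tumors (no-dox tumor 2 and plus-dox tumor 2) differed 4.73-fold, and each group held both high and low tumors. Means were 351 ± 133, 247 ± 111 and 242 ± 130 RPKM (SD, n = 4 each). H2-K1 did not pass the test against no-dox tumors, with a log2 fold change of -0.50 (SE 0.44, edgeR adjusted p = 0.601) in plus-dox and -0.51 (SE 0.44, edgeR adjusted p = 0.53) in off-dox tumors.

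The other classical heavy chain gene, H2-D1, had 443, 593, 337 and 531 RPKM in no-dox tumors 1 to 4. Plus-dox tumors 1 to 4 had 478, 283, 401 and 402 RPKM, and off-dox tumors 1 to 4 had 532, 338, 316 and 219 RPKM. Its 3 highest tumors were those of H2-K1 and its 2 lowest were again off-dox tumor 4 and plus-dox tumor 2, over a narrower 2.71-fold range. Its log2 fold change was -0.27 (SE 0.25, edgeR adjusted p = 0.611) in plus-dox and -0.41 (SE 0.25, edgeR adjusted p = 0.368) in off-dox against no-dox tumors. Class I heavy chains are polymorphic and have near-identical relatives, reads of 50 bases were mapped to a C57BL/6 reference, and how reads with several positions were treated is not given in the sources used here. Values of H2-K1, H2-D1 and their relatives are therefore uncertain, and the part that alleles of the cells and of the host play in them was not tested.

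The light chain gene B2m varied least. Its level in no-dox tumors 1 to 4 was 1007, 1230.2, 829 and 1131 RPKM. Plus-dox tumors 1 to 4 had 1169, 844, 1011 and 992 RPKM, and off-dox tumors 1 to 4 had 1183, 995, 907 and 653 RPKM. The full range was 1.88-fold, with off-dox tumor 4 lowest. Differences from no-dox tumors were within their errors, with log2 fold changes of -0.05 (SE 0.17) in plus-dox and -0.14 (SE 0.17) in off-dox tumors. The SD of log2 CPM over the 12 tumors was 0.24 for B2m, 0.40 for H2-D1 and 0.73 for H2-K1.

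The transporter gene Tap1 was at 17.9, 26.6, 10.1 and 18.6 RPKM in no-dox tumors 1 to 4. Plus-dox tumors 1 to 4 had 19.8, 7.81, 15.7 and 16.0 RPKM, and off-dox tumors 1 to 4 had 23.1, 13.0, 14.9 and 8.78 RPKM. Tap1 was low in no-dox tumor 3, plus-dox tumor 2 and off-dox tumor 4, that is, in a single tumor of each group. Its partner Tap2 had 12.9, 17.1, 8.36 and 13.6 RPKM in no-dox tumors 1 to 4. The plus-dox tumors had 15.7, 11.1, 12.6 and 14.3 RPKM, and the off-dox tumors had 16.98, 11.9, 12.4 and 10.3 RPKM. Tap2 thus spanned a 2.04-fold range and Tap1 a 3.41-fold range. Neither passed the test, with log2 fold changes of -0.29 (SE 0.33) and 0.06 (SE 0.19) in plus-dox and of -0.26 (SE 0.34) and 0.02 (SE 0.19) in off-dox against no-dox tumors for Tap1 and Tap2.

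Tapbp, the tapasin gene, had 67.5, 96.9, 46.8 and 71.5 RPKM in no-dox tumors 1 to 4. The plus-dox tumors had 72.2, 33.9, 56.5 and 61.5 RPKM, and the off-dox tumors had 74.0, 47.3, 46.7 and 32.3 RPKM. It followed H2-D1 most closely of all pairs of these genes (Pearson r = 0.97 over 12 tumors). Its log2 fold change was -0.32 (SE 0.27, edgeR adjusted p = 0.581) in plus-dox and -0.47 (SE 0.27, edgeR adjusted p = 0.35) in off-dox against no-dox tumors.

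Among the immunoproteasome subunits, Psmb8 had 54.2, 65.7, 39.7 and 53.4 RPKM in no-dox tumors 1 to 4. The plus-dox tumors had 67.1, 36.6, 47.9 and 48.9 RPKM, and the off-dox tumors had 73.4, 41.7, 48.0 and 33.3 RPKM. Group means of Psmb8 lay within 49.1 and 53.3 RPKM, well inside the spread of any group. Psmb9 had 41.7, 43.5, 32.6 and 34.2 RPKM in no-dox, 49.2, 23.2, 26.2 and 34.9 RPKM in plus-dox and 45.8, 30.2, 37.3 and 18.5 RPKM in off-dox tumors 1 to 4. Psmb10 had 51.3, 59.5, 41.7 and 45.9 RPKM in no-dox, 55.7, 28.4, 31.4 and 40.9 RPKM in plus-dox and 47.3, 26.8, 40.7 and 27.9 RPKM in off-dox tumors 1 to 4. For Psmb10 the no-dox tumors were the more even and the other groups reached lower. Its log2 fold change in off-dox against no-dox tumors was -0.45 (SE 0.21, edgeR adjusted p = 0.262), the lowest adjusted p of the 10 genes after Nlrc5.

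Each of these subunits replaces a constitutive one, and the ratio within a tumor does not depend on the scaling of the library. The ratio of RPKM of Psmb8 over Psmb5 was 0.334 ± 0.0995, 0.394 ± 0.0679 and 0.406 ± 0.109 (SD, n = 4 each) without dox, on dox and off dox. Psmb9 over Psmb6 was 0.239 ± 0.0458, 0.248 ± 0.063 and 0.247 ± 0.0727, and Psmb10 over Psmb7 was 0.325 ± 0.0816, 0.302 ± 0.106 and 0.281 ± 0.0976 in the same order. No ratio differed between groups beyond the spread of its tumors, with two-sided exact permutation p from 0.429 to 0.971 over 9 tests (Benjamini-Hochberg adjusted p = 0.971 for each), where 70 arrangements allow a p no smaller than 0.0286. The ratios varied more between tumors than between groups. Psmb8 over Psmb5 was 0.196 in no-dox tumor 3 and 0.539 in off-dox tumor 1.

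The constitutive subunits themselves were at higher levels (means of 12 tumors 137 RPKM for Psmb5, 142 for Psmb6 and 140.4 for Psmb7). None of the 3 was called. Psmb5 averaged 165 ± 28.6, 127 ± 17.3 and 120.01 ± 15.05 RPKM (SD, n = 4 each) in the same order of groups, with a log2 fold change of -0.43 (SE 0.14, edgeR adjusted p = 0.136) in off-dox against no-dox.

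Nlrc5 was the only one of the 10 genes whose group mean was highest off dox and lowest without dox. Its level was 2.46, 2.74, 1.62 and 2.51 RPKM in no-dox tumors 1 to 4. Plus-dox tumors 1 to 4 had 3.83, 1.94, 3.89 and 3.66 RPKM, and off-dox tumors 1 to 4 had 4.57, 4.59, 4.55 and 2.25 RPKM. In each dox-exposed group 3 tumors lay above every no-dox tumor and the remaining tumor, plus-dox 2 or off-dox 4, lay within the no-dox range. Means were 2.33 ± 0.49, 3.33 ± 0.931 and 3.99 ± 1.16 RPKM (SD, n = 4 each). The log2 fold change was 0.53 (SE 0.26, edgeR adjusted p = 0.392) in plus-dox against no-dox and 0.80 (SE 0.26, edgeR adjusted p = 0.136) in off-dox against no-dox, and 0.27 (SE 0.26, edgeR adjusted p = 1) between off-dox and plus-dox tumors. A single test over the 3 groups gave Nlrc5 an edgeR adjusted p of 0.292, the lowest of the 10 genes.

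The off-dox call for Nlrc5 depended on the tool and on the tumors. DESeq2 gave a log2 fold change of 0.81 with an adjusted p of 0.0455, in a fit that called 615 of 17561 genes in this pair. The edgeR fits without plus-dox tumor 2, and without plus-dox tumor 2 and off-dox tumor 4, called 352 of 17454 and 471 of 17329 genes. In edgeR the adjusted p of Nlrc5 was 0.0867 without plus-dox tumor 2 and 0.0711 without plus-dox tumor 2 and off-dox tumor 4, in which fit the log2 fold change was 0.99 (SE 0.15). In that last fit, the difference of plus-dox from no-dox tumors was 0.71 (SE 0.15, edgeR adjusted p = 0.376).

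**Figure D3:**
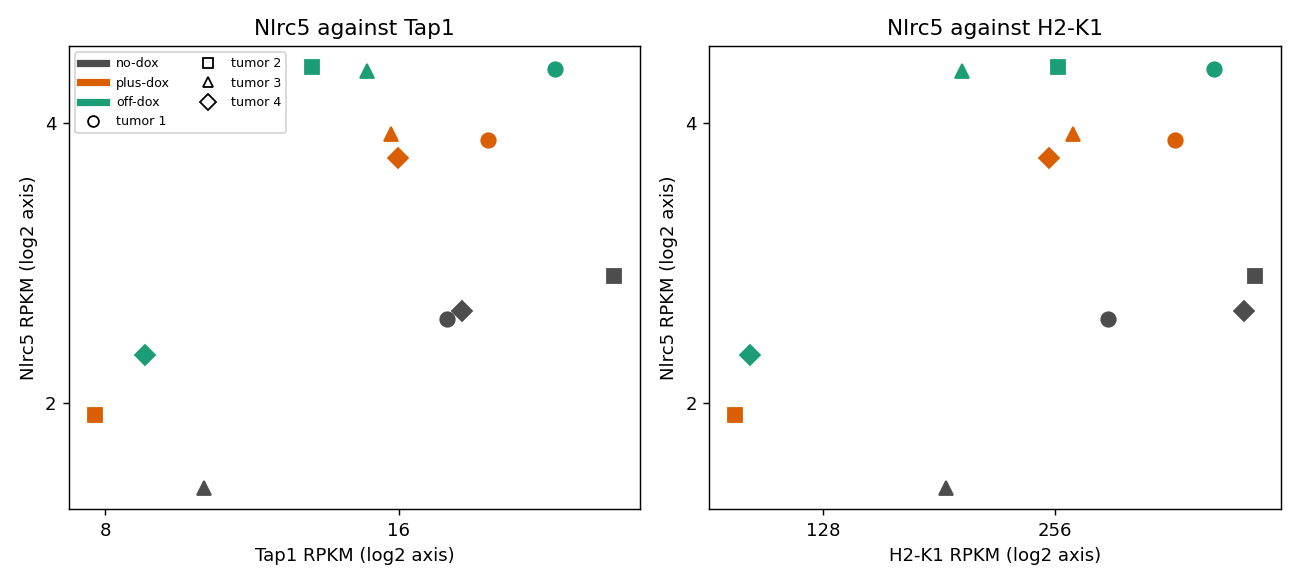
Nlrc5 (RPKM, log2 axis) against Tap1 and H2-K1 (RPKM, log2 axes) in 12 tumors, coloured by group, with a symbol for the tumor number. Tumors with little Tap1 and H2-K1 also had the least Nlrc5 of their group, and the dox-exposed tumors lie above the no-dox tumors at like levels of Tap1 or H2-K1.

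Set against the 9 other genes in the same tumor, Nlrc5 was higher in dox-exposed than in no-dox tumors without overlap for most of them. As a share of the Tap1 RPKM, Nlrc5 was 10.3% to 16.0% without dox, 19.4% to 24.8% on dox and 19.8% to 35.2% off dox. Relative to H2-K1 the same ranges were 0.555% to 0.874%, 1.04% to 1.97% and 1.11% to 2.34%. All 4 plus-dox tumors, including tumor 2, exceeded all 4 no-dox tumors in the ratio to 7 of the 9 other genes. The exceptions were the ratios to B2m and Tap2. All 4 off-dox tumors exceeded all 4 no-dox tumors in the ratio to 9 of 9, and off-dox tumors exceeded all plus-dox tumors in 0 of 9. Over all expressed genes, 1.77% of the ratios to one of these 9 genes were higher in every plus-dox tumor than in every no-dox tumor, and 3.32% in every off-dox tumor. The ratios were chosen after seeing the data, share their numerator and have denominators that vary together, so they are given as a description without a test.

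Of the variance in Nlrc5 (log2 CPM over 12 tumors), 42.4% lay between groups, the highest share of the 10 genes. Psmb10 followed with 33.4%, and the lowest shares were 2.02% for Tap2 and 2.84% for Psmb8. The median of the 10 genes was 11.9%, beside 22.4% over 14548 expressed genes. Their median SD (0.39) was also larger than that over all those genes (0.27), and most of their variance lay between tumors of the same group.

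The genes other than Nlrc5 rose and fell together from tumor to tumor. No-dox tumor 2 and off-dox tumor 1 were each among the 3 highest tumors for 9 of the 10 genes, and plus-dox tumor 1 was for 7. Plus-dox tumor 2 and off-dox tumor 4 were among the 3 lowest for all 10 genes, and no-dox tumor 3 was for 6. Every group thus held a tumor high in most of these genes and a tumor low in most of them.

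**Figure D4:**
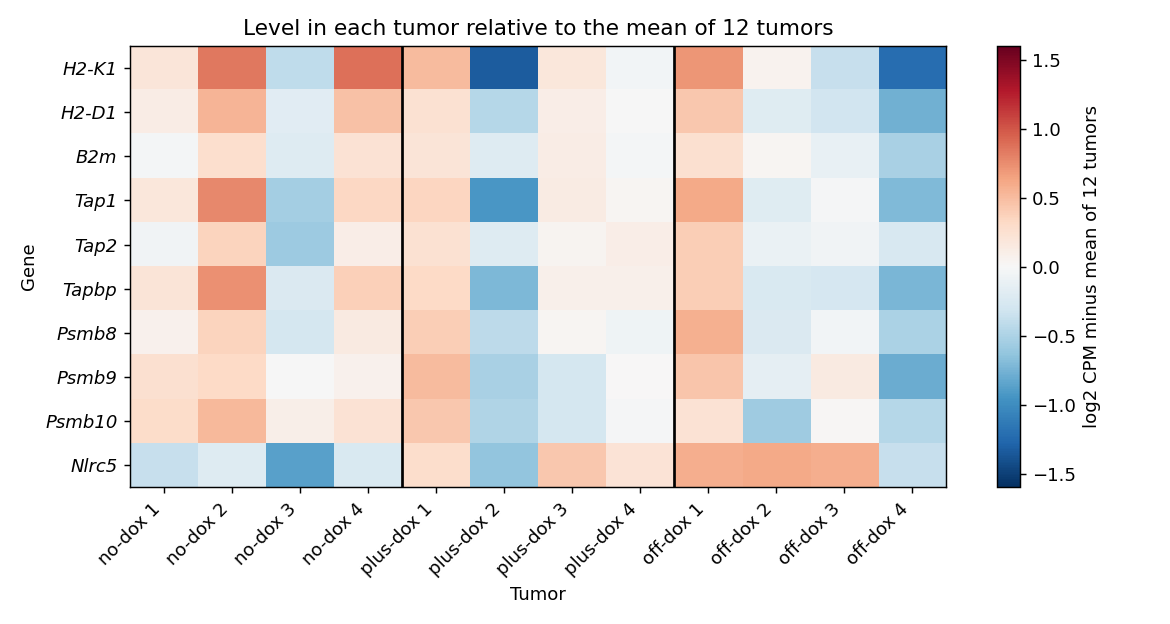
Level of each gene in each tumor as log2 CPM minus its mean over the 12 tumors, with vertical lines between groups. By RPKM, plus-dox tumor 2 and off-dox tumor 4 are among the 3 lowest tumors for all 10 genes. No-dox tumor 2 and off-dox tumor 1 are among the 3 highest for 9. Nlrc5 is below its mean in all 4 no-dox tumors.

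Over the 12 tumors, the 36 pairs that leave out Nlrc5 had a median Pearson r of 0.86 (0.53 to 0.97 on log2 CPM), and 35 of 36 had a Benjamini-Hochberg adjusted permutation p under 0.05, both for r and for Spearman's rho. With the 2 farthest tumors of each pair left out, 27 of 36 did (median r 0.82), and 24 of 36 without plus-dox tumor 2 and off-dox tumor 4 (median r 0.81). With group means subtracted and tumors permuted within groups, 34 of 36 did (median r 0.89). Adjustment was over all 45 pairs. The share of pairs of other genes that pass was not counted. With 49.8% of the variance of 14548 expressed genes on the leading principal component, moving together is not shown to be particular to these genes.

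The 9 pairs with Nlrc5 differed in this between the measured and the group-centred values. As measured, their median r was 0.40 (-0.04 with Psmb10 to 0.58 with Tap2), and 0 of 9 had an adjusted permutation p under 0.05. With group means subtracted the median r was 0.82, and 8 of 9 had an adjusted p under 0.05 by exact permutation within groups over 13824 arrangements. H2-K1 and Nlrc5, for example, had r = 0.40 over all tumors and 0.90 within groups, and Psmb10 remained the exception (0.54 within groups). Without plus-dox tumor 2 and off-dox tumor 4, a setting chosen after seeing the data, the group-centred median r with Nlrc5 was 0.67 and 3 of 9 pairs had an adjusted p under 0.05 by exact permutation within groups over 864 arrangements.

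**Figure D5:**
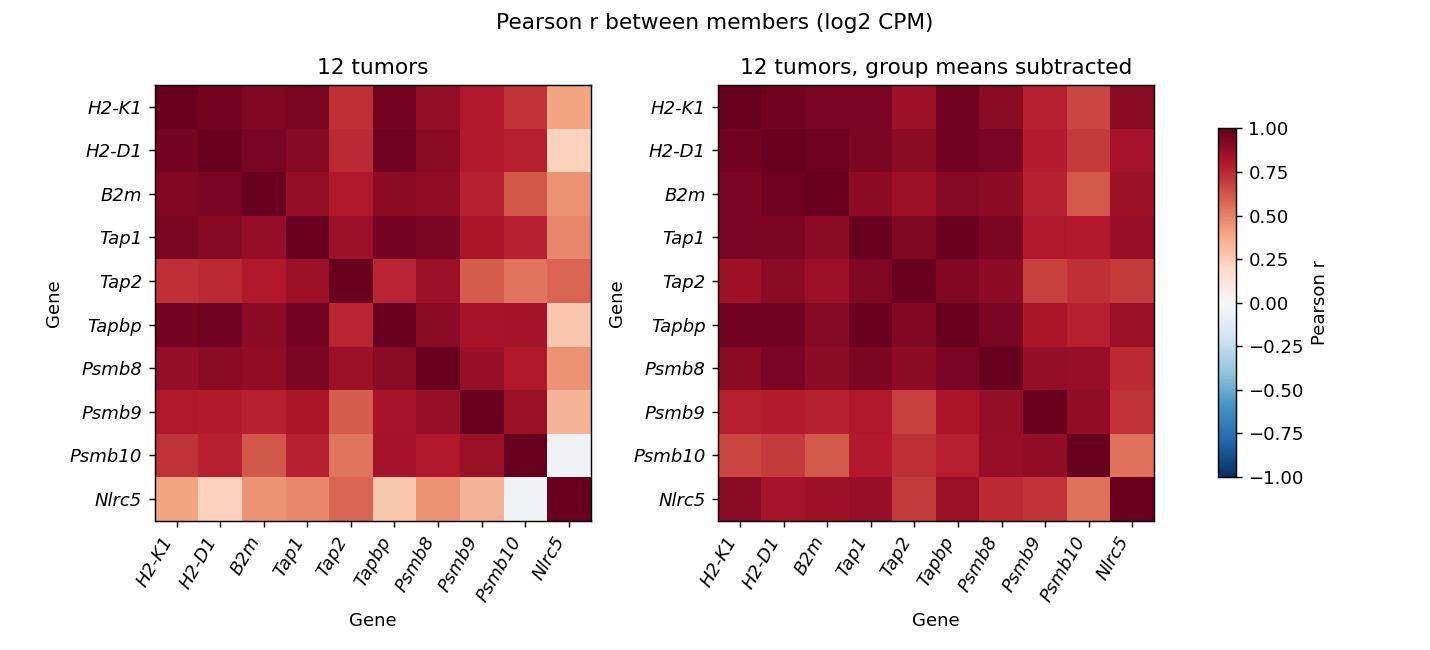
Pearson r between the 10 genes on log2 CPM over 12 tumors, as measured (left) and with the mean of each group subtracted (right). The row of Nlrc5 goes from a median r of 0.40 to 0.82, while the other pairs are at 0.86 and 0.89.

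The 10 genes whose pattern over the 12 tumors was most like the mean of the class I genes, among 12684 other genes with a mean over 1 RPKM, were Il17rc (r = 0.99), Rasal1 (0.98), Rundc1 (0.97), Trim14 (0.97), Irf7 (0.96), Prosapip1 (0.96), Trim7 (0.96), Ypel2 (0.96), Ifi44 (0.96) and Frat1 (0.96). Irf7 and Ifi44 are interferon-induced genes. Irf7, a transcription factor of the interferon response, ranged from 33.1 to 184 RPKM. These genes were picked as the highest of many correlations over 12 tumors and are a description only.

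The 10 genes were also compared across tumors with the summed markers of each cell type and with Irf1, a transcription factor of the interferon response, with permutation p adjusted over a family of 130 relations, 120 of which are reported. For none of these relations was the share of all genes that pass counted. Irf1 correlated with 8 of 10 (median r = 0.75) at an adjusted permutation p under 0.05, but with 1 of 10 by Spearman's rho and 0 of 10 without the 2 farthest tumors. With group means subtracted and exact permutation within groups, Irf1 passed for 10 of 10 (median r 0.83). Without plus-dox tumor 2 and off-dox tumor 4, and without centring, it passed for 0 of 10 (median r 0.48). Ifng itself was at no more than 0.0224 RPKM in any tumor.

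Of 21 tested interferon ligands, signalling genes and induced genes, 0 were called in any pair by edgeR. At an unadjusted p under 0.05, 1 was higher and 2 were lower in plus-dox against no-dox, and 1 was higher and 1 lower in off-dox against no-dox tumors. Over all genes, 13.7% and 20.4% were under this limit in these pairs, in either direction. The counts of the lists below stand beside the same shares. The most abundant were Ifngr1, a chain of the interferon gamma receptor (mean 119.9 RPKM), Isg15, a ubiquitin-like modifier (109 RPKM), and Irf7 (102 RPKM). Median log2 fold changes were -0.16 in plus-dox and -0.10 in off-dox against no-dox tumors.

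The chaperones and trimming factors of class I loading were also not called, at 0 of 7 in any pair by edgeR, but all 7 had negative log2 fold changes against no-dox tumors (median -0.22 in plus-dox and -0.29 in off-dox). At an unadjusted p under 0.05, 1 was lower in plus-dox and 2 were lower in off-dox tumors, beside 13.7% and 20.4% of all genes in either direction. Pdia3, the disulfide isomerase of the loading complex, had 416 to 517 RPKM without dox, 295 to 398 on dox and 242 to 357 off dox, so that no-dox tumors did not overlap with the others. No other gene of this list separated plus-dox from no-dox tumors, and only Calr also separated off-dox from no-dox tumors. The share of all genes that separate in this way was not counted. The log2 fold change of Pdia3 was -0.41 (SE 0.15, edgeR adjusted p = 0.329) in plus-dox and -0.51 (SE 0.15, edgeR adjusted p = 0.112) in off-dox tumors. Calr, the chaperone calreticulin, averaged 514 ± 42.2, 434 ± 42.2 and 411 ± 47.5 RPKM (SD, n = 4 each) without dox, on dox and off dox. Both act on other proteins of the endoplasmic reticulum as well. Psme2, a subunit of the proteasome activator PA28, averaged 169.6 ± 21.4, 149 ± 30.6 and 156 ± 28.2 RPKM (SD, n = 4 each) in the same order.

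Of the partners of Nlrc5 at promoters, 0 of 7 were called in any pair by edgeR, with 1 lower in plus-dox and 2 lower in off-dox tumors at an unadjusted p under 0.05. The most abundant were the NF-Y subunits Nfya (mean 16.7 RPKM), Nfyc (15.1 RPKM) and Nfyb (11.3 RPKM). Nonclassical and class I-like heavy chains gave 0 calls of 11 tested in any pair by edgeR, with 1 higher in plus-dox at an unadjusted p under 0.05 and 0 in off-dox against no-dox tumors. H2-Q4 averaged 44.5 RPKM, H2-T23, the mouse Qa-1 gene, 39.0 RPKM, and H2-M3, which presents formylated peptides, 16.3 RPKM. H2-T23 went from 50.1 ± 11.1 RPKM in no-dox to 31.2 ± 12.6 RPKM in off-dox tumors (SD, n = 4 each; edgeR adjusted p = 0.252).

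Class II genes, which present peptides taken up from outside, gave 0 calls of 6 in any pair by edgeR and 0 at an unadjusted p under 0.05. Their leading gene Cd74, the invariant chain, averaged 413 ± 149, 288 ± 106 and 344 ± 166 RPKM in no-dox, plus-dox and off-dox tumors (SD, n = 4 each). The chain genes H2-Aa and H2-Ab1 followed, with means of 221 and 156 RPKM over the 12 tumors. Class I is expressed by nearly all cells and class II mainly by professional presenting cells.

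Markers of the cells in the tumor moved with some of these values. Summed levels of 8 epithelial markers ran from 2280 to 3033 RPKM without dox, 1363 to 2003 on dox and 1048 to 2608 off dox, and Krt8, Krt18 and the others gave 0 calls of 8. The epithelial genes Epcam and Cdh1, picked after their values were seen, were lowest in plus-dox tumor 2 and off-dox tumor 4. Epcam was 7.76 RPKM in plus-dox tumor 2 and 40.9 RPKM in off-dox tumor 4, against 72.3 to 388 RPKM in the other 10 tumors. Cdh1 was 22.1 and 42.1 RPKM in these tumors, against 57.5 to 191 RPKM in the others. Over the whole list the order of tumors was not the same for each marker, and Krt8 (318 RPKM) and Krt18 (391 RPKM) were lowest in off-dox tumor 3. Plus-dox tumor 2 was among the 3 lowest tumors for 6 of the 8 markers, off-dox tumor 3 for 6, off-dox tumor 4 for 5 and no-dox tumor 3 for 0. The summed epithelial markers correlated with the 10 genes at a median r of 0.55, with 3 of 10 at an adjusted permutation p under 0.05 and 0 of 10 without the 2 farthest tumors.

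Endothelial markers (5 genes, 23.04 to 109.7 RPKM summed) went the other way with a median r of -0.64 (5 of 10), as did T and NK cell markers with -0.67 (4 of 10), and both were at 0 of 10 without the 2 farthest tumors. The summed T and NK cell markers were led by Cd4 (mean 3.23 RPKM, beside 0.921 RPKM for Ncr1, the next). All relations given for this list therefore cannot be assigned to T or NK cells. Fibroblast (median r -0.51) and macrophage markers (0.33), the leukocyte gene Ptprc (-0.31) and the lists for neutrophils, dendritic cells, B cells, skeletal muscle and adipocytes passed for 0 of 10 each. Nlrc5 differed from the other genes in some relations. Its r was 0.55 with Ptprc (others -0.58 to -0.04), 0.60 with neutrophil markers (others -0.40 to 0.05) and 0.20 with T and NK cell markers (others -0.81 to -0.39). Without plus-dox tumor 2 and off-dox tumor 4 these values of Nlrc5 were 0.76, 0.82 and 0.65. With group means subtracted they were 0.03, 0.31 and -0.80. With group means subtracted and exact permutation within groups, fibroblast markers passed for 10 of 10 (median r -0.73), endothelial markers for 9 of 10 (-0.73), T and NK cell markers for 9 of 10 (-0.83) and dendritic cell markers for 3 of 10 (0.61). These centred values include plus-dox tumor 2 and off-dox tumor 4, and the share of all genes that pass in the same way was not counted. Without these tumors and without centring, each of these lists passed for 0 of 10, with median r of -0.40, -0.41, -0.44 and 0.59 in the same order. The part of the makeup of the tumors in the class I values was not tested.

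T and NK cell markers were mostly low. Their 9 genes summed to 2.83 to 4.64 RPKM without dox, 5.46 to 7.13 on dox and 5.21 to 9.30 off dox. In all tumors, 5 of 9 were under 0.5 RPKM. Cd3e, part of the T cell receptor complex, was at no more than 0.149 RPKM and Cd8a at no more than 0.195 RPKM. Ncr1 averaged 0.436 ± 0.234, 1.14 ± 0.307 and 1.19 ± 0.642 RPKM (SD, n = 4 each) without dox, on dox and off dox. It was not called (edgeR adjusted p = 0.326 in plus-dox and 0.130 in off-dox against no-dox). Of this list Cd4 (log2 fold change 0.73, SE 0.19, edgeR adjusted p = 0.0933) and Nkg7 (1.65, SE 0.39, edgeR adjusted p = 0.0875) were called higher in off-dox than in no-dox tumors. Cd4 is also expressed by some myeloid cells. The neutrophil gene Csf3r was called higher as well (0.78, SE 0.17, edgeR adjusted p = 0.0832), and these were the only called genes of all the marker and pathway lists in any pair. These calls rested on the setting. Over 21 alternatives, chosen for this after seeing the data, Cd4 was called in 6, Nkg7, which 1 filter left out, in 7 and Csf3r in 9 (adjusted p from 0.00250 to 0.220), and all calls ended without any one of no-dox tumors 1 to 4, plus-dox tumor 3 or 4 or off-dox tumors 2 to 4, with the 8 tumors alone, under the replicate block and at an adjusted p limit of 0.05. Ptprc, which marks all leukocytes, was higher by 0.55 (SE 0.13, edgeR adjusted p = 0.0853) in off-dox than in no-dox tumors, short of the 1.5-fold limit. It ranged from 9.47 to 12.3 RPKM without dox, 11.9 to 16.0 on dox and 13.3 to 18.2 off dox, and thus differed between no-dox and off-dox tumors in the direction of Nlrc5. Nlrc5 is expressed in leukocytes too, and the part of leukocytes in its level was not tested.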

How the data were processed

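RNA-seq of 12 tumors was used. Per the submitters' processing notes and methods, the authors mapped 50-base single-end, non-strand-specific reads to mm9 with TopHat 1.4.1 and Bowtie 0.12.8 (base calls CASAVA 1.8.2) and counted coverage of unambiguous exonic spans with bedtools 2.16.2. The deposited expected counts are not normalized, and the deposited RPKM values are scaled by the authors to exonic length and mapped reads. Duplicate handling is not given in the sources used here.

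Counts were rounded and fitted with edgeR 4.0.16 (R 4.3.3, TMM, quasi-likelihood test, 1 fit of 3 groups, at least 10 counts summed over tumors), with Benjamini-Hochberg adjustment over 17561 genes. Calls required an adjusted p under 0.1, over 1.5-fold, a mean RPKM over 0.25 and a length over 250 bp. Log2 CPM used a prior count of 2. Ratios used a pseudocount of 0.1 in tests, and correlations 100000 permutations. Alternatives were DESeq2 1.42.0 (plain or with moderated fold changes), RLE scaling, other filters, 8 tumors alone, a replicate block and leaving out tumors. Scripts were tested on simulated data. Replicates differed beyond sampling noise (chi-square per degree of freedom 23.4 to 191.8).

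The 10 genes and all lists were chosen with earlier results of these data known. Named were all 10 genes, and in each pathway list the 3 most abundant and any called gene, with Ifng and Irf1 besides. In marker lists any called gene and Ptprc were named, with Krt8, Krt18 and Ncr1, each among the 3 most abundant of its list. The 10 genes most like the class I genes and Trp53 were also named. Against the rule set for naming genes, the 3 most abundant genes of most marker lists are given as sums only, and Epcam, Cdh1, Cd3e and Cd8a were named after their values were seen. Protein sequences were not analysed here. Counting error alone is small at these depths, and no interval for it is given. Some alleles, a gene and a sequence motif are not reported here.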

Additional observations from a re-analysis of the deposited data

Results flagged for a closer look

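Dixon's test at the 95% level was run on 39 groups of 4 tumors (10 genes and 3 ratios in 3 groups), and 3 stood out, where chance gives about 1 in 20. Nlrc5 was 1.94 RPKM in plus-dox tumor 2, far below the other plus-dox tumors (3.66 to 3.89 RPKM). Nlrc5 was 2.25 RPKM in off-dox tumor 4, far below the other off-dox tumors (4.55 to 4.59 RPKM). The ratio of Psmb8 to Psmb5 was 0.293 in plus-dox tumor 2, below the other plus-dox tumors (0.417 to 0.442). These are the tumors that stood apart on the leading principal component.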

How the results depend on the processing

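None of the 10 genes was called under RLE scaling, other filters on counts, an adjusted p limit of 0.05, fits of 8 tumors or the replicate block. In off-dox against no-dox, 1 gene (Nlrc5) was called by DESeq2, by DESeq2 with moderated fold changes, without plus-dox tumor 2, and without plus-dox tumor 2 and off-dox tumor 4 (0 to 1 over the fits that left out tumors).

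The number of all genes called was less stable. In off-dox against no-dox it was 235, and 0 at an adjusted p limit of 0.05, 122 without a filter, 365 with at least 10 counts in every tumor, 3 with the 8 tumors alone, 615 by DESeq2, 396 with moderated fold changes, 471 without the 2 tumors that stood apart and 0 to 789 on leaving out tumors, moving over 1.5 times for every tumor but plus-dox 1 and plus-dox 2. In plus-dox against no-dox it was 128 by DESeq2, 90 with moderated fold changes and 0 to 3 on leaving out tumors (3 without plus-dox tumor 1). Between off-dox and plus-dox it was 6, 4 and 0 to 1 (1 without off-dox tumor 1). The cause was not tested.

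The replicate block gave 0 calls among all genes in off-dox against no-dox and turned the near-zero off-dox against plus-dox log2 fold changes of Tap1 and Psmb9 to -0.0033 and -0.0082. Same-numbered tumors did not on average deviate together (mean r -0.09 over 12 pairs, from -0.45 to 0.57, and 0.04 for 36 pairs of different number). With so few tumors these values cannot settle whether the numbers pair the tumors, and the labels do not say.

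Of the 120 relations of the 10 genes with marker lists and Irf1, 20 had an adjusted permutation p under 0.05 over 12 tumors, 41 with group means subtracted, 0 without the 2 farthest tumors and 0 without plus-dox tumor 2 and off-dox tumor 4.

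Small differences changed sign when tumors were left out. In plus-dox against no-dox the log2 fold change ran from -0.14 to 0.018 for B2m, -0.090 to 0.20 for Tap2 and -0.23 to 0.043 for Psmb8. In off-dox against no-dox it ran from -0.13 to 0.16 for Tap2, -0.34 to 0.050 for Psmb8 and -0.37 to 0.011 for Psmb9. Between off-dox and plus-dox it ran from -0.39 to 0.23 for H2-K1, -0.40 to 0.019 for H2-D1, -0.21 to 0.038 for B2m, -0.25 to 0.21 for Tap1, -0.19 to 0.041 for Tap2, -0.39 to 0.0059 for Tapbp, -0.26 to 0.14 for Psmb8, -0.19 to 0.23 for Psmb9 and -0.27 to 0.093 for Psmb10. For the log2 ratio of Psmb9 to Psmb6 it was -0.11 to 0.19 in plus-dox and -0.14 to 0.25 in off-dox against no-dox and -0.18 to 0.22 between off-dox and plus-dox, for Psmb10 to Psmb7 -0.33 to 0.12 in plus-dox against no-dox and -0.36 to 0.084 between off-dox and plus-dox, and for Psmb8 to Psmb5 -0.13 to 0.20 between off-dox and plus-dox. With 4 tumors per group, differences of the size of these errors were not detectable.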
